A study of Homo sapiens with 6 samples.

Results

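The semaphorins, plexins and neuropilins are the ligands and receptors of one guidance system, and they were taken here as whole human families: 20 SEMA, 9 PLXN and 2 NRP genes, matched by symbol. All 31 symbols were found among the 50883 rows of the deposited count table. RNA had been sequenced from D283, an established human medulloblastoma cell line, a medulloblastoma being a malignant tumour of the cerebellum. In 3 libraries the cells had received a GFP-marked lentivirus with a guide RNA against OTX2, labelled OTX2 knockout, and in 3 libraries a virus of the same kind with a non-targeting guide, labelled control. All cultures were collected after 7 days. How many guides were used, which nuclease cut, what share of cells was edited and whether cells were sorted or cloned is not stated in the labels. With a single line, p-values cover only the variation from culture to culture.

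Semaphorins are secreted, membrane-spanning or lipid-anchored proteins that carry a sema domain. Plexins are their signalling receptors, and their cytoplasmic part holds a GTPase-activating domain that acts on small GTPases of the Ras family and changes the cytoskeleton and adhesion. Most secreted class 3 semaphorins cannot bind plexins alone and use the neuropilins as ligand-binding co-receptors. In the developing cerebellum of the mouse the system is known for the migration and proliferation of granule cell precursors, and in the retina for sorting neurites into layers.

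Total counts were between 60561438 and 62166870 in the OTX2 knockout libraries and between 54540645 and 61662466 in the control libraries. Control replicate 1 had the largest share of mitochondrially encoded RNA, 0.764%, against 0.531% to 0.601% in the knockout libraries and 0.440% and 0.449% in the other controls. OTX2 RNA, the targeted transcript, averaged 825 ± 61.1 CPM in knockout cells and 964 ± 48.4 CPM in control cells (SD, n = 3 each), where CPM is a gene's count relative to its library's total after TMM scaling, which equalizes most genes between libraries. Its log2 fold change was -0.22 (SE 0.06, adjusted p = 0.00646 over 18420 tested genes by edgeR, as for all log2 fold changes given here). The RNA level does not measure how many copies were edited. All 8 listed markers of Group 3 medulloblastoma and its photoreceptor-like programme were detected, with a summed level of 3155 to 3727 CPM in knockout libraries and 4506 to 4827 CPM in control libraries.

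Of the 31 genes, 18 were higher and 6 were lower in OTX2 knockout cells at an adjusted p under 0.05, 6 did not pass the test, and SEMA5A, with 1 count in 6 libraries, was too low to be tested. Across all 18420 tested genes, 39.7% were called, 21.2% upwards and 18.5% downwards. The groups' libraries did not overlap for 25 of the 30 tested members, 19 with knockout higher and 6 with knockout lower, against 49.2% of all tested genes, 26.2% higher and 23.0% lower. The largest rises were in genes with low levels in control cells. SEMA3E, SEMA6A, PLXNA4, SEMA5B, NRP2 and NRP1 were each called and more than 2-fold higher, as were 6.04% of all tested genes. Called and more than 2-fold lower were 0 members, against 0.782% of all tested genes. The falls were in SEMA3C, SEMA4A, SEMA6B, SEMA6D, SEMA7A and PLXNA1. The median log2 fold change was 0.25 over the 30 tested members and 0.01 over all tested genes. SEMA3E passed the filter on low counts through the knockout libraries alone, and SEMA3D had 2 of 3 control libraries above the filter, so these medians and counts describe the tested members and not the whole families. With library totals in place of TMM scaling, 18 members were higher and 3 lower, and against a 1.5-fold change (glmTreat) only the same 6 members with large rises were called. In bulk RNA, a smaller number of cells that express a gene cannot be told apart from less RNA per cell.

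**Figure D1:**
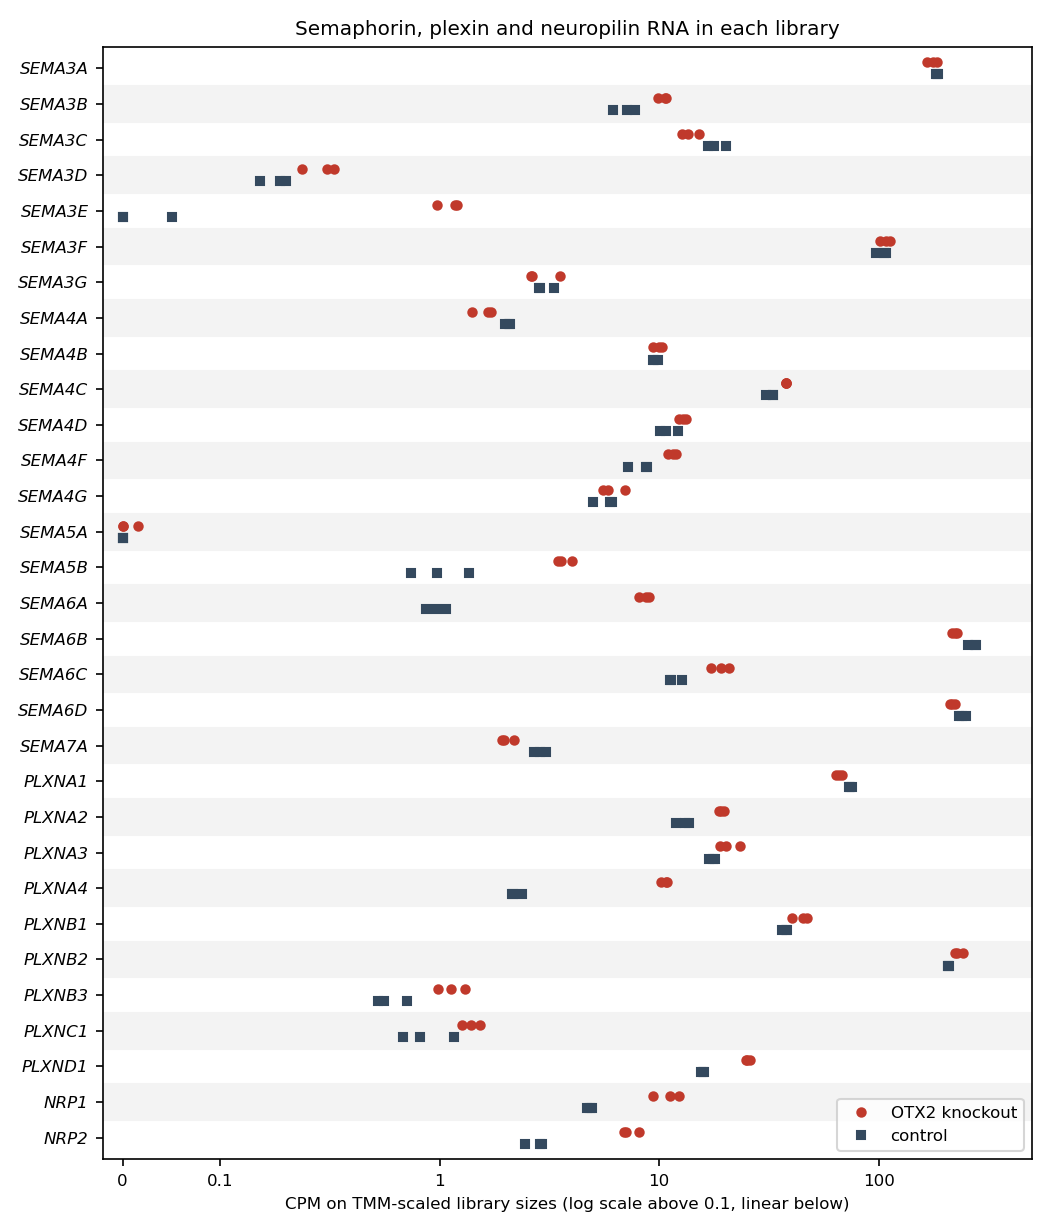
CPM of each member in each library, with the 3 OTX2 knockout libraries as circles above the 3 control libraries as squares, on an axis that is logarithmic above 0.1 CPM and linear below. SEMA6A, PLXNA4, SEMA5B, NRP1 and NRP2 show wide gaps between the groups, while SEMA3A, SEMA3F, SEMA3G, SEMA4B and SEMA4G overlap, and SEMA5A lies at or near 0.

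Markers of other cell types were measured in the same libraries. All 6 tested neuronal markers of 8 listed were higher, against 21.2% of all tested genes. ELAVL4, at 0 counts in each control library, and RBFOX3, at 5, 3 and 3, passed the filter on low counts through the knockout libraries alone. The summed level of the 8 markers was 61.4 to 69.0 CPM in knockout libraries and 14.6 to 16.3 CPM in control libraries. TUBB3 was listed at 0 in every library. Many of the members are also expressed by neurons, and the part of the neuronal markers' rise in the members' values was not tested. Markers of endothelial cells, which are known to express NRP1, PLXND1 and SEMA3G, summed to 5.29 to 6.14 CPM in knockout libraries and 2.27 to 3.45 CPM in control libraries, most of it VWF, with CDH5 at 9 to 13 counts in knockout libraries and at 0 in each control library. Immune markers summed to 0.534 to 0.647 CPM in knockout libraries and 0.844 to 0.965 CPM in control libraries, but of the 3 tested markers 1 was higher, 1 was lower and 1 did not pass the test. The higher marker, CD14, passed the filter on low counts through the knockout libraries alone. Astrocyte markers summed to 334 to 382 CPM in knockout libraries and 229 to 265 CPM in control libraries. Most of that sum was GJA1, at 279 ± 23.8 CPM in knockout cells and 154 ± 12.7 CPM in control cells. GFAP was at no more than 4 counts in any library. Of the 3 tested astrocyte markers 2 were higher and 1, SLC1A3, was lower. Mesenchymal markers summed to 23.8 to 24.9 CPM in knockout libraries and 15.0 to 16.1 CPM in control libraries. The part of these lists in the members' values was not tested.

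Levels between genes were compared per kilobase of annotated exon. In that unit 4 ligands and 1 receptor dominated in both groups. SEMA6B, a transmembrane ligand of class A plexins, stood at 50.3 ± 1.44 CPM per kb in knockout cells and 61.0 ± 2.83 CPM per kb in control cells (SD, n = 3 each). PLXNB2, the receptor with the highest level, had 31.9 ± 1.35 CPM per kb in knockout cells and 28.7 ± 0.168 CPM per kb in control cells. SEMA6D, a transmembrane ligand of PLXNA1, had 25.4 ± 0.716 CPM per kb in knockout cells and 28.2 ± 1.01 CPM per kb in control cells. These genes were ordered SEMA6B, PLXNB2, SEMA6D, SEMA3F and SEMA3A from the top in both groups, and the ranges of PLXNB2 and SEMA6D overlapped in control cells but not in knockout cells. The places of PLXNB2 and SEMA6D depend on the length used: per kb of the longest annotated transcript, SEMA6D had 35.6 ± 1.01 and PLXNB2 36.3 ± 1.54 CPM per kb in knockout cells, with overlapping ranges, and SEMA6D had 39.5 ± 1.41 and PLXNB2 32.6 ± 0.191 CPM per kb in control cells, without overlap. SEMA6B, SEMA6D, SEMA3A and SEMA3F together held 84.4 ± 0.288% of the summed semaphorin level in knockout cells and 88.0 ± 0.289% in control cells, with no overlap between the groups (exact two-sided permutation test, p = 0.10, the smallest that 3 against 3 libraries allow). The genes with the large rises stayed far down this order: SEMA6A moved to place 20 in knockout cells, against place 27 in control cells, and PLXNA4 to place 21, against place 24. These places are not exact, since SEMA6A overlapped PLXNC1 and PLXNB3 in control cells, and PLXNA4 overlapped SEMA3G in knockout cells and SEMA5B in control cells. NRP1 was at place 18 in knockout cells and 21 in control cells, but its range overlapped that of SEMA4G and SEMA4D in knockout cells. SEMA3E and SEMA3D took the last places among tested members in both groups, though SEMA3E overlapped PLXNC1 in knockout cells.

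Promoter windows of 300 bases, from 250 bases before to 50 bases after a gene start (RefSeq, GRCh38.p14), were found for 27 of the 31 genes, 48 windows in all, with none for SEMA3A, SEMA6A, SEMA6B or NRP1. TAATCC, the core bound by OTX2 and CRX, occurred on either strand in the windows of 3 members, SEMA3D, SEMA5B and SEMA6C, that is in 6.25% of the members' windows and in 6.36% of 35116 windows of all genes. CAGATG, an E-box form of proneural factors such as NEUROD1, occurred in 14.6% of the members' windows and 14.7% of all windows. The palindromic E-box CAGCTG occurred in 22.9% of the members' windows and 17.9% of all windows. Counted by gene, CAGCTG occurred in 10 of 27 members, or 37.0%, and in 21.1% of all genes. By gene, TAATCC occurred in 11.1% of members and 7.81% of all genes, and CAGATG in 14.8% and 17.5%. Shares by gene rise with windows per gene, which were more for the members (48 for 27) than for all genes (35116 for 27305). The motifs were searched on both strands and differ in letters, and a match describes letters and not a bound site. The windows shown are those with TAATCC from the 2 members that were called, and that of PLXNA4, the plexin with the largest rise. Each is written from 5′ to 3′ along the gene's own strand, which is the minus strand for these 3 genes, with the matches in capitals. In SEMA5B, at chr3:122993189-122993488, TAATCC begins 199 bases and CAGCTG 98 bases before the start. In SEMA6C, at chr1:151146582-151146881, the reverse complement of TAATCC begins 96 bases before the start. In PLXNA4, at chr7:132576421-132576720, the reverse complement of CAGATG begins 7 bases before the start. The SEMA5B and PLXNA4 windows lie inside the genes' GENCODE spans, so they belong to starts downstream of the outermost one.
SEMA5B: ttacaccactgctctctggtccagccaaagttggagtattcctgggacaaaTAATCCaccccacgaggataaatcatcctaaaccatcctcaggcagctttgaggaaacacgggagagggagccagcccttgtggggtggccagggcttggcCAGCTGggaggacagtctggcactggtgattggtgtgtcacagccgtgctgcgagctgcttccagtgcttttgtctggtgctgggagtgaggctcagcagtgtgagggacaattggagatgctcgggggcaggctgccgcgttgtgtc
SEMA6C: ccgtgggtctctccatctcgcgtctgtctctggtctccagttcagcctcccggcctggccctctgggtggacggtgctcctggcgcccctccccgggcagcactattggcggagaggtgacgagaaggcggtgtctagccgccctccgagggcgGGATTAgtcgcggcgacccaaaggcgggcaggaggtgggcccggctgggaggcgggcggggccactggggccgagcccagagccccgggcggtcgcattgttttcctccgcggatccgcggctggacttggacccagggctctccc
PLXNA4: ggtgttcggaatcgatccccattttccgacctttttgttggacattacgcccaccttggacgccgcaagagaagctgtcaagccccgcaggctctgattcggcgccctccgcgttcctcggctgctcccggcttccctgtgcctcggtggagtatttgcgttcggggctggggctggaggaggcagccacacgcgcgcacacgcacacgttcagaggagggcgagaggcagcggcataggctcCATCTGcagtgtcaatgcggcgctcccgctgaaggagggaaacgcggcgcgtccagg

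Among the secreted class 3 ligands, 2 of 7 were higher, 1 was lower and 4 did not pass the test. That is 42.86% called, against 39.7% of all tested genes. SEMA3E, which binds PLXND1 without a neuropilin and is known for vascular patterning, was close to 0 in control cells. It had 75, 60 and 76 counts in the knockout libraries, against 0, 3 and 0 counts in the control libraries. The ratio of the summed and scaled counts was 62.5, with an exact 95% counting interval from 21.1 to 305, and edgeR gave an adjusted p of 1.36e-07. This test was possible only because the knockout libraries passed the filter on low counts. All 3 control counts came from control replicate 2, without which the control group was at 0. Even in knockout cells its level was 1.12 ± 0.127 CPM (SD, n = 3). SEMA3E spans bases 83363238 to 83649113 of chromosome 7, minus strand (GRCh38, GENCODE release 29).

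SEMA3B, a ligand of neuropilins from the short arm of chromosome 3, had 10.7, 10.7 and 9.89 CPM in knockout libraries and 6.17, 7.11 and 7.77 CPM in control libraries. Every knockout library was above every control library, and the log2 fold change was 0.57 (SE 0.09, adjusted p = 8.06e-05 by edgeR). SEMA3C, a ligand known from the cardiac outflow tract, had 12.7, 13.6 and 15.2 CPM in knockout libraries and 20.2, 17.8 and 16.7 CPM in control libraries. It was lower in every knockout library, and the log2 fold change was -0.40 (SE 0.08, adjusted p = 0.000957 by edgeR).

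The most abundant secreted ligands did not pass the test. SEMA3A, the classic axon repellent that acts through NRP1, had 166, 177 and 185 CPM in knockout libraries and 187, 182 and 184 CPM in control libraries, and the groups overlapped. Its log2 fold change was -0.07 (SE 0.05, adjusted p = 0.282 by edgeR) and was 0.0087 with library totals alone. SEMA3F, the main ligand of NRP2, had 112, 108 and 101 CPM in knockout libraries and 97.7, 106 and 108 CPM in control libraries, and these ranges overlapped (log2 fold change 0.05, SE 0.05, adjusted p = 0.494 by edgeR). SEMA3G, known from endothelium, averaged 2.92 ± 0.526 CPM in knockout cells and 3.01 ± 0.254 CPM in control cells (adjusted p = 0.814 by edgeR). The sign of its small difference depended on single libraries: the log2 fold change was -0.05 with all libraries and 0.021, 0.026 and 0.021 without control replicate 1, knockout replicate 1 or knockout replicate 3. SEMA3D averaged 0.291 ± 0.050 CPM in knockout cells and 0.179 ± 0.0241 CPM in control cells, which did not overlap but had an adjusted p of 0.0961 by edgeR.

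**Figure D2:**
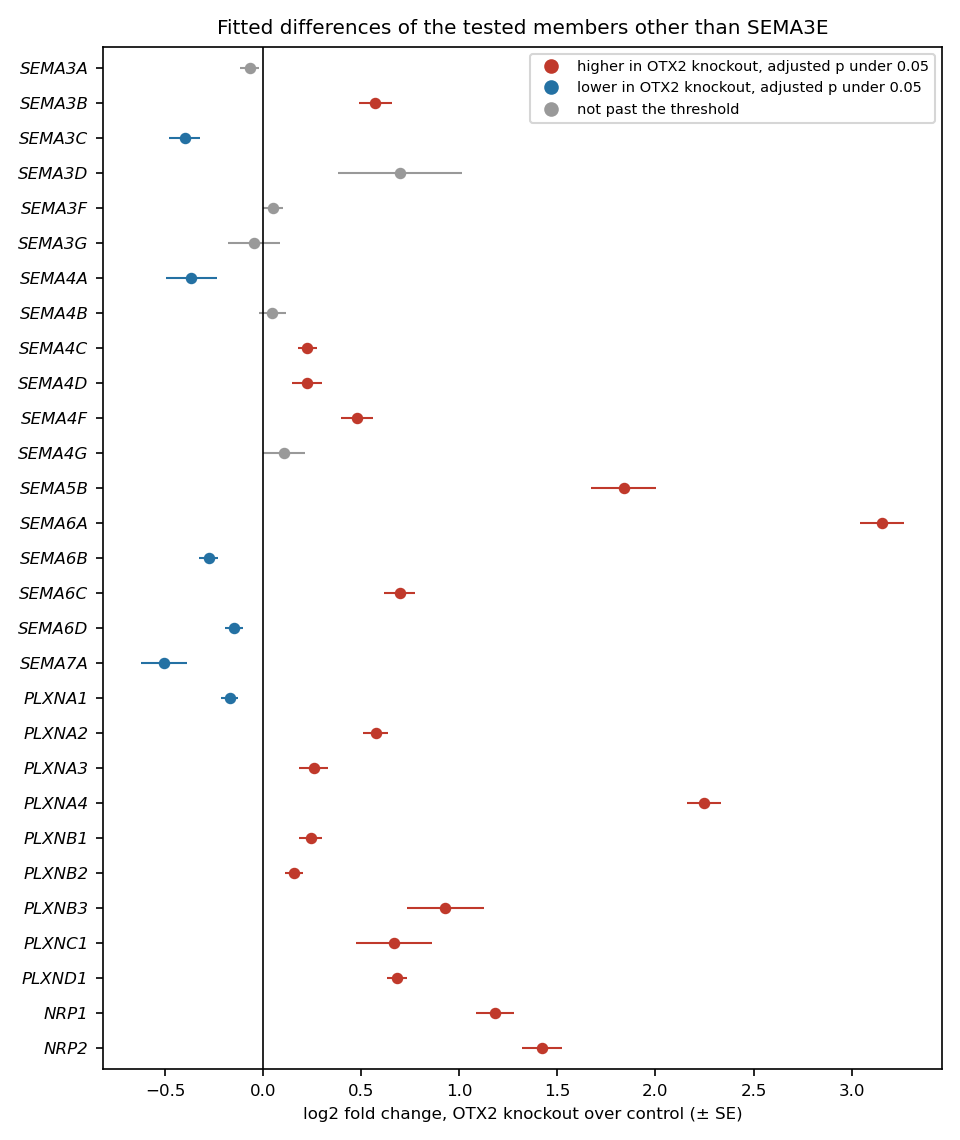
Log2 fold change of OTX2 knockout over control with its SE for each tested member other than SEMA3E, whose control level rests on 3 counts. SEMA6A at 3.15 and PLXNA4 at 2.25 stand farthest to the right, and the lowest value is that of SEMA7A at -0.50.

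Of the 6 class 4 ligands, which span the membrane, 3 were higher, 1 was lower and 2 did not pass the test. That is 66.67% called, against 39.7% of all tested genes, and the differences were small. SEMA4F had 11.5, 12.0 and 11.0 CPM in knockout libraries and 8.74, 8.77 and 7.22 CPM in control libraries, and the log2 fold change was 0.48 (SE 0.08, adjusted p = 0.00026 by edgeR). SEMA4C, a ligand of PLXNB2, had 38.0, 37.8 and 37.7 CPM in knockout libraries and 30.8, 33.1 and 33.2 CPM in control libraries. The knockout libraries lay close together and above every control library (log2 fold change 0.23, SE 0.05, adjusted p = 0.00198 by edgeR). SEMA4D, the ligand of PLXNB1, averaged 12.8 ± 0.473 CPM in knockout cells and 11.0 ± 1.07 CPM in control cells (log2 fold change 0.22, SE 0.08, adjusted p = 0.0284 by edgeR). The SEMA4D call was lost without control replicate 2 (adjusted p = 0.0984), control replicate 3 (0.132), knockout replicate 1 (0.0718) or knockout replicate 3 (0.0910), and with DESeq2 (0.0783), all but the last by edgeR.

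SEMA4A, which acts in immune cells and is needed by photoreceptors in the mouse, averaged 1.59 ± 0.165 CPM in knockout cells and 2.06 ± 0.0589 CPM in control cells (log2 fold change -0.37, SE 0.13, adjusted p = 0.0373 by edgeR). This call rested on the full set of libraries. It was lost without control replicate 1 (adjusted p = 0.0673), control replicate 2 (0.0949), control replicate 3 (0.0580), knockout replicate 2 (0.0582) or knockout replicate 3 (0.125), with library totals alone (0.104) and with DESeq2 (0.118), all but the last by edgeR. SEMA4B averaged 9.90 ± 0.439 CPM in knockout cells and 9.58 ± 0.288 CPM in control cells, and its groups overlapped (log2 fold change 0.05, SE 0.07, adjusted p = 0.631 by edgeR). SEMA4G averaged 6.13 ± 0.769 CPM in knockout cells and 5.70 ± 0.598 CPM in control cells (log2 fold change 0.11, SE 0.11, adjusted p = 0.457 by edgeR). Its exons overlap those of MRPL43, which held 620% of its count, so its level is uncertain.

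SEMA6A had the largest rise among members with more than 3 counts in control cells. This transmembrane ligand of PLXNA2 and PLXNA4 is known in the mouse cerebellum for the inward migration of granule cells. It had 8.70, 9.04 and 8.12 CPM in knockout libraries and 1.06, 0.965 and 0.863 CPM in control libraries. Every knockout library was far above every control library, 8.94-fold on average (log2 fold change 3.15, SE 0.11, adjusted p = 1.88e-11 by edgeR). In the order of rises it took place 144 of 18420 tested genes. SEMA6A spans bases 116443616 to 116574934 of chromosome 5, minus strand (GRCh38, GENCODE release 29). The antisense gene CTB-118N6.3, now SEMA6A-AS1, overlaps its exons. It had 114 counts against 1627 for SEMA6A over the knockout libraries, or 7.01%, and 140 counts against 162 for SEMA6A over the control libraries, or 86.4%. That gene averaged 0.603 ± 0.0730 CPM in knockout cells and 0.839 ± 0.220 CPM in control cells, with overlapping groups. The counting is not stated to use strand, so the level of SEMA6A is uncertain, above all in control cells, and the size of its fold change with it.

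Other class 6 ligands moved less, and the abundant ones were lower. SEMA6C had 20.8, 19.1 and 17.2 CPM in knockout libraries and 11.3, 11.2 and 12.8 CPM in control libraries, and the log2 fold change was 0.70 (SE 0.08, adjusted p = 4.64e-06 by edgeR). SEMA6B had 222, 228 and 215 CPM in knockout libraries and 255, 275 and 277 CPM in control libraries, and it was lower in every knockout library (log2 fold change -0.28, SE 0.05, adjusted p = 0.000313 by edgeR). SEMA6D had 212, 216 and 224 CPM in knockout libraries and 250, 232 and 241 CPM in control libraries (log2 fold change -0.15, SE 0.05, adjusted p = 0.0186 by edgeR). The SEMA6D groups did not overlap, but its call was lost without knockout replicate 1 (adjusted p = 0.0821) or knockout replicate 2 (0.0813) and with library totals alone (0.228, edgeR in each case). The share of SEMA6B in the summed semaphorin level per kb, which does not depend on the scaling, was 36.4 ± 0.620% in knockout cells and 41.1 ± 1.19% in control cells, again with no overlap (exact two-sided permutation test, p = 0.10, the smallest possible here).

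SEMA5B, a ligand with thrombospondin repeats that restricts neurites in the mouse retina through PLXNA1 and PLXNA3, had 3.45, 3.59 and 4.01 CPM in knockout libraries and 0.740, 1.35 and 0.975 CPM in control libraries. It was 3.6-fold higher on average, with every knockout library above every control library (log2 fold change 1.84, SE 0.17, adjusted p = 4.79e-07 by edgeR). SEMA5A, its close relative and a ligand of PLXNB3, had 1, 0 and 0 counts in knockout libraries and 0 counts in each control library, where 3 counts, the limit that a count of 0 allows, correspond to 0.0508 to 0.0563 CPM. SEMA7A, the lipid-anchored ligand of PLXNC1 and of integrins, had 2.18, 1.92 and 1.96 CPM in knockout libraries and 2.85, 3.07 and 2.68 CPM in control libraries. It was lower in every knockout library, with the largest fall of the families (log2 fold change -0.50, SE 0.12, adjusted p = 0.00308 by edgeR).

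Both neuropilins were higher, against 21.2% of all tested genes. NRP1, the co-receptor of SEMA3A and of VEGFA, had 12.3, 11.2 and 9.41 CPM in knockout libraries and 4.69, 4.84 and 4.95 CPM in control libraries. It was 2.27-fold higher on average (log2 fold change 1.18, SE 0.10, adjusted p = 1.55e-07 by edgeR). NRP2, the co-receptor of SEMA3F and of VEGFC, had 8.13, 7.05 and 6.89 CPM in knockout libraries and 2.92, 2.86 and 2.44 CPM in control libraries, 2.68-fold higher on average (log2 fold change 1.42, SE 0.10, adjusted p = 4.85e-08 by edgeR). For both genes the lowest knockout library lay well above the highest control library. NRP1 spans bases 33177492 to 33336262 of chromosome 10, minus strand, and NRP2 bases 205681990 to 205798133 of chromosome 2, plus strand (GRCh38, GENCODE release 29). Exons of both genes overlap those of genes without deposited counts, so that overlap was not measured. Their summed level was 1.48 ± 0.168 CPM per kb in knockout cells and 0.616 ± 0.0106 CPM per kb in control cells. The ratio of NRP1 to NRP2 per kb was 1.79 ± 0.134 in knockout cells and 2.14 ± 0.271 in control cells, with libraries from 1.65 to 1.91 in knockout and from 1.94 to 2.45 in control (exact two-sided permutation test, p = 0.10, the smallest possible here).

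Of the 9 plexins, 8 were higher and 1 was lower, against 21.2% and 18.5% of all tested genes. PLXNA4, a receptor of SEMA6A, SEMA6B and, with NRP1, of SEMA3A, had 10.2, 10.7 and 10.9 CPM in knockout libraries and 2.15, 2.17 and 2.38 CPM in control libraries. The groups were far apart, with a 4.75-fold higher mean in knockout cells (log2 fold change 2.25, SE 0.09, adjusted p = 5.01e-11 by edgeR). PLXNA4 spans bases 132123332 to 132648688 of chromosome 7, minus strand (GRCh38, GENCODE release 29). PLXNA2, the receptor that pairs with SEMA6A in granule cell migration in the mouse, had 19.8, 18.7 and 19.2 CPM in knockout libraries and 13.7, 13.1 and 12.0 CPM in control libraries (log2 fold change 0.57, SE 0.06, adjusted p = 4.0e-06 by edgeR). PLXNA1 had 67.9, 65.9 and 64.0 CPM in knockout libraries and 74.3, 75.5 and 73.1 CPM in control libraries. It was the plexin that fell (log2 fold change -0.17, SE 0.04, adjusted p = 0.0068 by edgeR), but with library totals alone it was not called (adjusted p = 0.119). PLXNA3, a partner of NRP2 for SEMA3F, averaged 20.9 ± 2.32 CPM in knockout cells and 17.4 ± 0.598 CPM in control cells (log2 fold change 0.26, SE 0.07, adjusted p = 0.0111 by edgeR). Its log2 fold change was 0.23 without control replicate 2 (adjusted p = 0.0562) and 0.17 without knockout replicate 1 (0.0682). Exons of PLXNA3 overlap LAGE3, whose count was 65.6% of that of PLXNA3 in knockout cells and 85.5% in control cells, so its level is uncertain.

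The make-up of the class A plexins differed between the groups, in shares that do not depend on the scaling. PLXNA1 held 61.2 ± 0.711% of their summed level per kb in knockout cells and 72.6 ± 0.583% in control cells. PLXNA4 held 6.59 ± 0.462% in knockout cells and 1.46 ± 0.101% in control cells, and PLXNA2 14.2 ± 0.375% in knockout cells and 10.01 ± 0.560% in control cells. The libraries of the groups did not overlap for any of these shares, each with an exact two-sided permutation p of 0.10, the smallest possible. PLXNA1 remained the class A plexin with the highest level in every library.

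**Figure D3:**
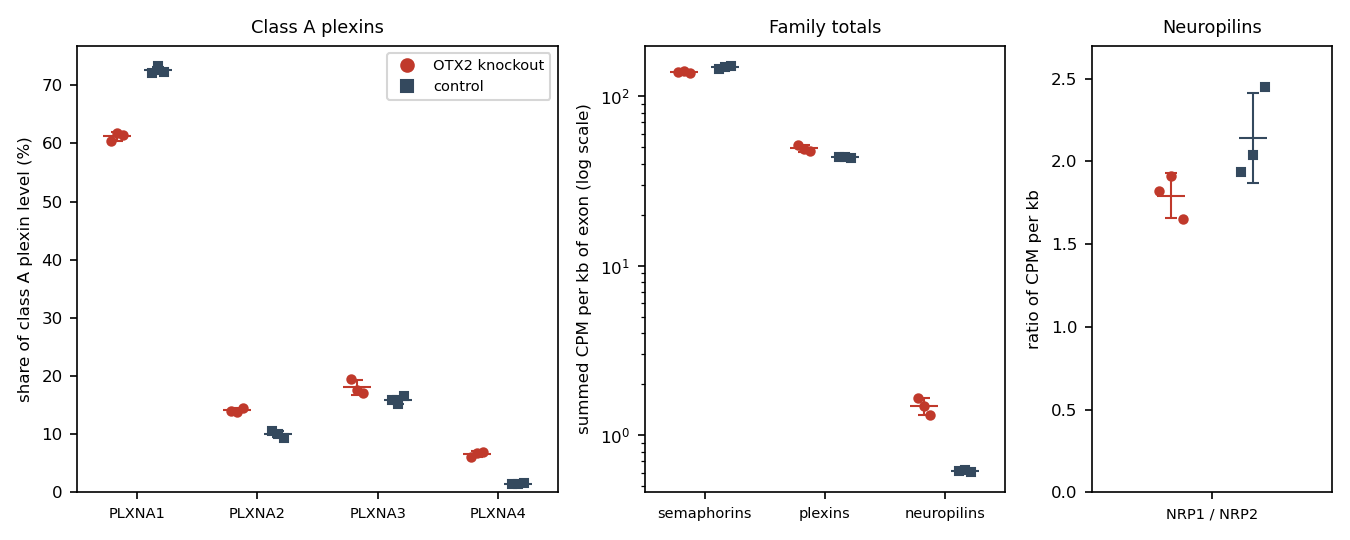
Left, share of each class A plexin in their summed CPM per kb; middle, summed CPM per kb of each family on a log axis; right, ratio of NRP1 to NRP2, with OTX2 knockout libraries as circles left of control libraries as squares and bars for the mean ± SD (n = 3). The share of PLXNA1 is lower and that of PLXNA4 higher in knockout cells, and the neuropilin sum is 2.40-fold higher, while the semaphorin sum is 0.933 times and the plexin sum 1.13 times that of control.

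All 3 class B plexins were higher, against 21.2% of all tested genes. PLXNB2, which acts in granule cell precursors in the mouse, had 243, 228 and 224 CPM in knockout libraries and 209, 207 and 208 CPM in control libraries (log2 fold change 0.16, SE 0.05, adjusted p = 0.0143 by edgeR). The call was lost without control replicate 2 (adjusted p = 0.0598), knockout replicate 1 (0.0714) or knockout replicate 2 (0.0532), by the same test. PLXNB1, the receptor of SEMA4D, had 47.2, 45.3 and 40.2 CPM in knockout libraries and 38.1, 37.7 and 36.3 CPM in control libraries (log2 fold change 0.24, SE 0.06, adjusted p = 0.00414 by edgeR). PLXNB3, a receptor of SEMA5A, had 1.30, 0.986 and 1.12 CPM in knockout libraries and 0.524, 0.559 and 0.713 CPM in control libraries, the largest difference of the class at the lowest level (log2 fold change 0.93, SE 0.20, adjusted p = 0.00152 by edgeR). PLXND1, the receptor of SEMA3E, known from endothelium and neurons, had 25.2, 25.9 and 24.8 CPM in knockout libraries and 16.0, 15.9 and 15.5 CPM in control libraries. Its libraries were tight within each group and well apart between them (log2 fold change 0.68, SE 0.05, adjusted p = 9.03e-08 by edgeR). PLXNC1, the receptor of SEMA7A, averaged 1.40 ± 0.135 CPM in knockout cells and 0.884 ± 0.251 CPM in control cells (log2 fold change 0.67, SE 0.19, adjusted p = 0.0130 by edgeR). Without control replicate 2 that call was lost (adjusted p = 0.0720), and exons of PLXNC1 overlap CEP83, listed as CCDC41, which averaged 37.7 ± 2.34 CPM in knockout cells and 45.1 ± 2.48 CPM in control cells, so the PLXNC1 level is uncertain.

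Set beside each other, known ligand and receptor pairs did not all move alike. For SEMA3E and PLXND1, and for SEMA6A with PLXNA2 and PLXNA4, ligand and receptors were all higher in knockout cells. SEMA4C with PLXNB2 and SEMA4D with PLXNB1 were also higher, though the SEMA4D and PLXNB2 calls were lost without single libraries. For SEMA7A and PLXNC1 the ligand had a log2 fold change of -0.50 and the receptor, of uncertain level, of 0.67. SEMA6B was lower, at -0.28, and its receptor PLXNA4 higher, at 2.25. SEMA5B had 1.84, with PLXNA1 at -0.17 and PLXNA3, of uncertain level, at 0.26. For SEMA6D and PLXNA1 both values were below 0, at -0.15 and -0.17, and both calls were lost with library totals alone. SEMA3A and SEMA3F did not pass the test while their co-receptors NRP1 and NRP2 were higher. The summed level was 138 ± 1.63 CPM per kb in knockout cells and 148 ± 2.88 CPM per kb in control cells for the semaphorins, and 49.2 ± 2.08 CPM per kb in knockout cells and 43.6 ± 0.285 CPM per kb in control cells for the plexins. For the semaphorins the groups overlapped with library totals alone, where the ratio of knockout to control was 0.985.

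The other genes of the pathway, taken from lists of co-receptors, other neuropilin ligands, intracellular effectors, kinases with collapsin response mediator proteins, and proteases, moved in both directions. Of 62 listed genes, 57 were tested, and 18 were higher and 11 lower, that is 50.9% called against 39.7% of all tested genes. Their median log2 fold change was 0.07. With library totals alone 28 were higher and 8 lower.

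Of 11 tested co-receptors and alternative receptors, 4 were higher and 2 lower, that is 54.55% called against 39.7% of all tested genes. L1CAM, an adhesion molecule that binds NRP1 and takes part in the response to SEMA3A, averaged 33.0 ± 1.20 CPM in knockout cells and 2.50 ± 0.221 CPM in control cells (log2 fold change 3.72, SE 0.08, adjusted p = 2.82e-14 by edgeR). NRCAM, of the same family, averaged 13.9 ± 0.915 CPM in knockout cells and 6.81 ± 0.330 CPM in control cells (log2 fold change 1.03, SE 0.07). The VEGF receptor FLT4 (0.36, SE 0.12) and CD72, a receptor of SEMA4D in immune cells (0.92, SE 0.32), were the other higher genes of the list. Both calls depended on single libraries: by edgeR, the adjusted p of FLT4 was 0.0781, 0.0764, 0.0901 and 0.0891 without control replicate 1, control replicate 2, knockout replicate 1 and knockout replicate 2, and that of CD72 was 0.0976, 0.148, 0.0555, 0.0662 and 0.107 without control replicates 2 and 3 and knockout replicates 1, 2 and 3. DESeq2 gave CD72 an adjusted p of 0.109. FLT1, a VEGF receptor, averaged 2.7 ± 0.302 CPM in knockout cells and 3.73 ± 0.360 CPM in control cells, and the integrin subunit ITGA1 4.78 ± 0.207 CPM in knockout cells and 5.93 ± 0.241 CPM in control cells, both lower. Among other ligands of neuropilins, PGF averaged 38.1 ± 2.86 CPM in knockout cells and 12.4 ± 0.984 CPM in control cells (log2 fold change 1.61, SE 0.07, adjusted p = 1.7e-10 by edgeR). VEGFB averaged 21.4 ± 0.946 CPM in knockout cells and 26.4 ± 0.913 CPM in control cells. VEGFA averaged 78.5 ± 15.4 CPM in knockout cells and 98.9 ± 6.56 CPM in control cells (adjusted p = 0.0138 by edgeR). Its groups overlapped, and it had a call that was lost without knockout replicate 1 (0.0894) or knockout replicate 2 (0.0697), with library totals alone (0.0563) and with DESeq2 (0.134). TGFB1 did not pass the test, at 41.7 ± 2.77 CPM in knockout cells and 43.7 ± 1.28 CPM in control cells.

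Of 25 tested intracellular effectors of plexins, 7 were higher and 4 lower, that is 44.0% called against 39.7% of all tested genes. MICAL2, an oxidase of actin, moved most and averaged 12.6 ± 0.875 CPM in knockout cells and 24.9 ± 2.04 CPM in control cells (log2 fold change -0.98, SE 0.07, adjusted p = 4.25e-08 by edgeR). Its relative MICAL3 averaged 35.2 ± 1.35 CPM in knockout cells and 28.1 ± 1.19 CPM in control cells, and was higher. The GTPase RRAS2 was higher, with a difference of 0.38 on the log2 scale (SE 0.06), and RHOA was lower, with -0.26 (SE 0.04), as were FARP1, an exchange factor that binds class A plexins, with -0.26 (SE 0.06), and the GTPase RAC1, with -0.14 (SE 0.05). By edgeR, the adjusted p of RAC1 was 0.0682, 0.166, 0.117 and 0.0864 without control replicate 1, control replicate 2, knockout replicate 1 and knockout replicate 3, 0.343 with library totals alone, 0.0506 with no filter and 0.0541 with at least 1 CPM in 3 libraries. Of 10 tested kinases and collapsin response mediator proteins, which relay SEMA3A signals to microtubules, 5 were higher and 1 was lower, or 60.0% called. CRMP1 averaged 1.10 ± 0.140 CPM in knockout cells and 0.126 ± 0.0242 CPM in control cells (log2 fold change 3.12, SE 0.27, adjusted p = 2.44e-07 by edgeR), and the kinase FYN 55.2 ± 3.54 CPM in knockout cells and 30.6 ± 1.80 CPM in control cells. With 7, 6 and 8 counts in the control libraries, CRMP1 passed the filter on low counts through the knockout libraries alone. DPYSL4 had a log2 fold change of 1.12 (SE 0.24), DPYSL2 of 0.24 (SE 0.05) and the kinase GSK3B of 0.14 (SE 0.05). By edgeR, the adjusted p of GSK3B was 0.0805, 0.151, 0.135 and 0.0888 without control replicate 2, control replicate 3, knockout replicate 2 and knockout replicate 3, and 0.0563 with no filter, and DESeq2 gave 0.0918. DPYSL3, with the highest level per kb of that list, was the gene that was lower (-0.21, SE 0.05). It averaged 826 ± 47.8 CPM in knockout cells and 958 ± 31.5 CPM in control cells. Of 6 tested proteases, PCSK5 was higher (log2 fold change 0.70, SE 0.11), PCSK6 (-0.29, SE 0.05) and ADAM17 (-0.18, SE 0.04) were lower, and MMP14 did not pass the test (0.12, SE 0.06). With library totals alone ADAM17 was not called (adjusted p = 0.0594 by edgeR) and MMP14 was (0.0166).

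**Figure D4:**
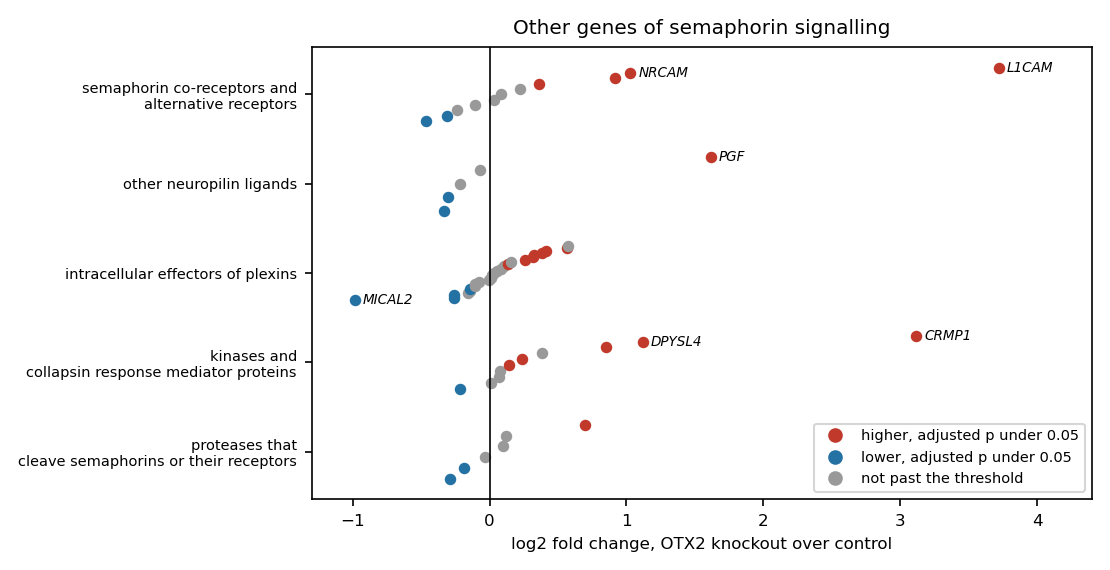
Log2 fold change of OTX2 knockout over control for each tested gene of the 5 pathway lists, with genes past the threshold in colour and those beyond about 1 named. L1CAM and CRMP1 lie beyond 3, PGF at 1.61, and MICAL2 at -0.98, while most effectors lie near 0.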

How the data were processed

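Total RNA of 6 D283 cultures was sequenced. The authors deposited unnormalized counts per gene symbol, with 1 column per library, and columns were assigned by title. Per the submitters' processing notes, STAR and hg38 were used. Which program, annotation and strand setting gave the counts is not stated, so reads of overlapping genes cannot be told apart. Of 50883 rows, 17682 had 0 counts throughout, and 0 columns were left unused.

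Counts were analysed in R 4.3.3 with edgeR 4.0.16: filterByExpr, TMM scaling, glmQLFit and glmQLFTest, Benjamini-Hochberg adjustment over 18420 tested genes and a threshold of 0.05. The fit had 4 residual degrees of freedom. The SE is the log2 fold change divided by the square root of F. CPM per kb uses the union of exons in GENCODE release 29 (GRCh38), which may differ from the authors' annotation. A gene is called uncertain where an overlapping gene held over 10% of its count. The rule could not be applied to overlapping genes without a row among the deposited counts. Among members not called uncertain, such genes overlap exons of NRP1, NRP2, SEMA3B, SEMA3F and SEMA5A. Alternatives were RLE size factors, library totals, no filter, at least 1 CPM in 3 libraries, DESeq2 1.42.0, limma-voom (limma 3.58.1), glmTreat against 1.5-fold, leaving out each library, the longest transcript as length, and promoter bases before the start. The edgeR fit was also run on simulated counts that had the spread of this same fit and few changed genes. Its outcome is not given here, and it cannot check the scaling for data in which many genes differ.

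The members, pathway lists and marker lists were chosen with earlier results of these data known. All members are named, and of each pathway list the 4 tested genes with the smallest p and those that complete a count of 5 or fewer. VWF, CDH5, GFAP, GJA1, SLC1A3, PDGFRB, DCN, ELAVL4, RBFOX3 and CD14 were singled out after their values were seen. One marker list is not reported here. Intervals and limits cover counting error only.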

Additional observations from a re-analysis of the deposited data

How the results depend on the processing

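Over the fits that left out 1 library, 14 to 18 members were higher and 4 to 5 lower. RLE size factors, limma-voom and no filter gave the same 18 and 6 as counts. With glmTreat against a 1.5-fold change, 6 members were higher and 0 lower (9 and 0 at an unadjusted p under 0.05), as were 1050 and 157 of all genes and 5 and 1 of the pathway genes. With library totals alone, 3 members and 2034 of all genes (3404 with TMM) were lower and 28 pathway genes higher, the log2 fold changes of SEMA3A, SEMA3G and TGFB1, none of them called, turned to 0.0087, 0.031 and 0.012, and the ratio of knockout to control in summed level was 0.985 for semaphorins and 1.19 for plexins, a scaling of these sums chosen after seeing the data. The cause was not tested. The log2 fold change of SEMA3G ranged from -0.21 to 0.026 over the leave-one-out fits. In bases before the gene start alone, 6 members held CAGCTG, against 10 in the whole, longer window. The share over all genes was not counted for the shorter stretch. With the longest transcript as length, the shares of class A plexins, the share of SEMA6B and the ratio of NRP1 to NRP2 kept their direction without overlap between the groups. Depth limits SEMA3D, SEMA3E and SEMA5A. No paired analysis was possible because the titles number the libraries across both groups, so that no number is shared.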
